A study of Mus musculus with 6 samples.

Results

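The naive and central memory program of T cells was followed here through 9 genes, Ccr7, Tcf7, Lef1, Il7r, Foxp1, Foxo1, Bach2, Satb1 and Actn1, taken by name from a table of 23505 gene rows. All 9 had counts in every library and all 9 were among the 10509 genes with enough counts to be tested. The libraries came from CD4+ T cells of mouse liver, sorted as CD3-positive, CD4-positive cells without CD8 and without NK1.1, an antigen of NK cells. Simvastatin, a statin that blocks cholesterol synthesis, was given by gavage at 30 mg/kg to the ConA+SIM mice, and the ConA mice received PBS by the same route. Every mouse was wild type and received concanavalin A (ConA), a jack bean lectin used to induce T cell hepatitis. Gavage was repeated each day over the 5 days leading up to ConA, at 1 h ahead of the injection and at 24 h past it. Each group held 3 libraries, and the series held no library without ConA, so the effect of ConA itself is not seen here. Strain, age, sex and the time of cell collection are not given in the labels, nor do they say that libraries of a group came from separate animals. The p-values thus reflect library-to-library spread only, and that spread could be technical.

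Naive and central memory T cells circulate through lymph nodes and stay quiescent between encounters with antigen. CCR7 is the receptor that brings them into lymph nodes, and the interleukin 7 receptor carries a survival signal. TCF-1 (encoded by Tcf7), LEF-1, FOXO1, FOXP1, BACH2 and SATB1 are nuclear factors that set up or hold this state, and in effector T cells, which enter inflamed tissue, most of these transcripts are known to be scarcer. Actn1 encodes alpha-actinin 1, which crosslinks actin filaments, and its transcript marks naive T cells in mouse and human data.

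Total counts ran from 17549429 to 20441213 in the ConA+SIM libraries and from 18360352 to 25031862 in the ConA libraries. The T cell markers Cd3e, Cd3d, Cd3g, Cd247, Cd4, Cd2, Cd5, Cd28, Lck and Bcl11b summed to 3541 to 3740 CPM in ConA+SIM and 2385 to 3687 CPM in ConA, where CPM is the usual unit of counts per library size, taken on the TMM-scaled total. Cd8a and Cd8b1 summed to 26.3 to 54.1 CPM in ConA+SIM and 4.72 to 33.1 CPM in ConA. Libraries differed in other cell types: ConA replicate 2 had the highest sum of 8 B cell markers (1366 CPM, against 119 to 897 CPM elsewhere) and of 8 sinusoidal endothelial markers (1745 CPM, against 272 to 574 CPM elsewhere). ConA replicate 1 had the highest sum of 12 macrophage and Kupffer cell markers, 2200 CPM. ConA+SIM replicate 2 had the lowest sum of these macrophage markers, 245 CPM, and 18.4% of tested genes at 0, against 2.76% to 9.98% in the other libraries. Some marker sums separated the groups: 6 neutrophil markers summed to 583 to 940 CPM in ConA+SIM and 274 to 480 CPM in ConA. The neutrophil markers did not move together. Of 5 tested, S100a8 and S100a9 had higher fitted values and the other 3 lower ones (median log2 fold change -0.45). The sum of 7 erythroid and platelet markers was 229 to 343 CPM in ConA+SIM and 44.3 to 115 CPM in ConA, and the hemoglobin gene Hbb-bs passed the edgeR test (log2 fold change 2.07 ± 0.36, adjusted p = 0.0485).

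None of the 9 genes passed the test of ConA+SIM against ConA (edgeR quasi-likelihood test, Benjamini-Hochberg adjusted p under 0.05 over all tested genes), where 0.542% of tested genes passed, all 57 of them higher in ConA+SIM. With any 1 library left out, 0 to 3 genes passed. A p above the threshold does not show that a level was equal in both groups. Tcf7 and Actn1 had the smallest p-values, with lower mean levels in ConA+SIM, and were the 2 members with an unadjusted p under 0.05. Such a p with a lower level was found for 3.54% of all tested genes. The median log2 fold change of the 9 genes was -0.27, with 6 of 9 values below 0, beside a median of -0.04 over all tested genes and 52% of them below 0. The median of the 9 moved by over 1.5 times on leaving out any 1 of the 6 libraries, from -0.60 without ConA replicate 1 to -0.050 without ConA replicate 2. In no member did the groups separate: at least 1 ConA+SIM library lay within the range of the ConA libraries each time. Full separation was seen in 8.57% of tested genes with lower values in ConA+SIM and in 9.18% with higher values. Among other tools, DESeq2 called Tcf7 lower (log2 fold change -0.72, adjusted p = 0.0333, within a range of 0.0333 to 0.939 over 16 alternatives) and no other member, beside a share of 1.75% of its tested genes called lower. limma-voom called 0 members, beside 0.0666% of tested genes lower and 1.03% higher. With sample quality weights it also called 0, beside 0.0381% lower and 1.05% higher.

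**Figure D1:**
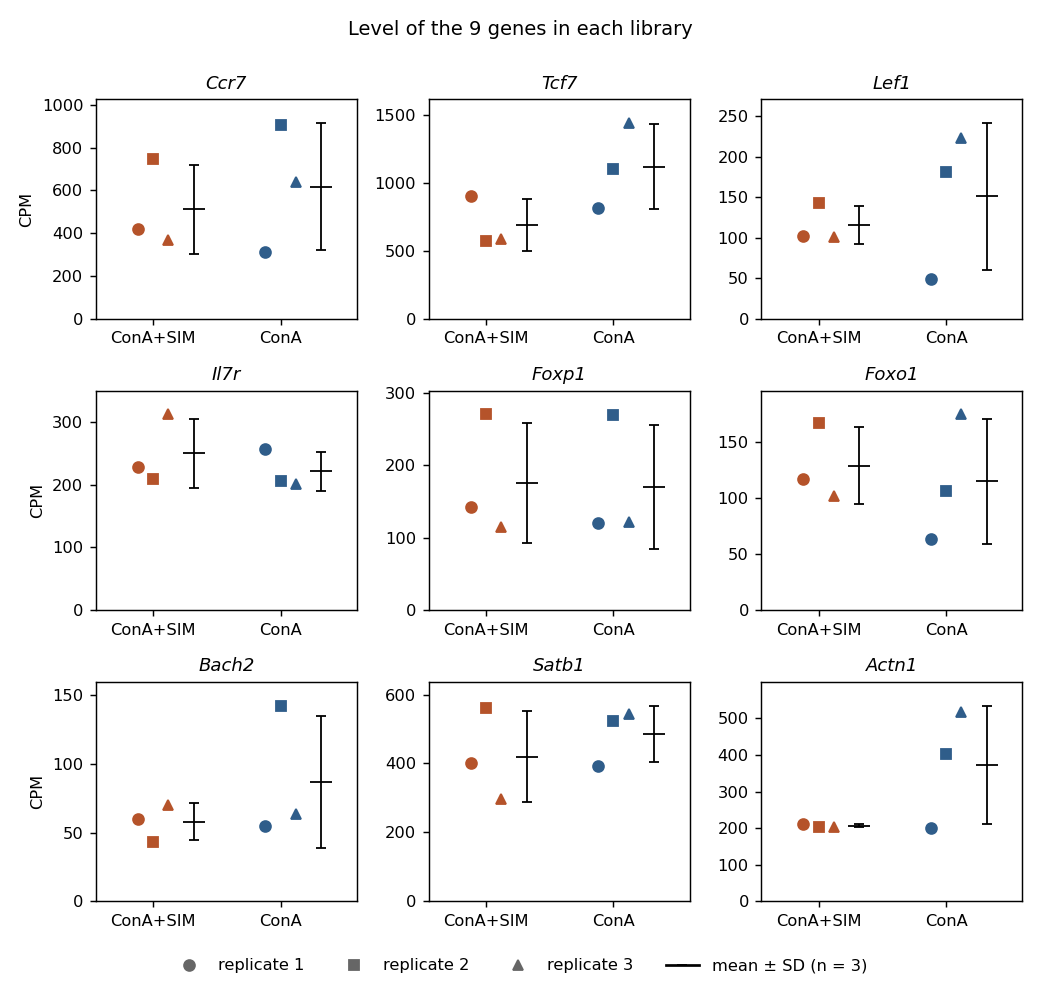
Level of each gene in CPM (vertical axes, each starting at 0) in the 3 ConA+SIM libraries and the 3 ConA libraries, with the mean and SD of each group in black. Actn1 lies between 204 and 211 CPM in all 3 ConA+SIM libraries and between 200 and 518 CPM in the ConA libraries; the groups overlap in all 9 panels.

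Tcf7, which encodes TCF-1, the factor that binds DNA downstream of beta-catenin and keeps T cells able to self-renew, had the highest level per transcript length of the 9 genes (chromosome 11, 52246527 to 52283383, GRCm38). It had 907, 570 and 585 CPM in ConA+SIM replicates 1 to 3, against 816, 1102 and 1441 CPM in ConA replicates 1 to 3. ConA+SIM replicate 1 lay above ConA replicate 1, while the other ConA+SIM libraries lay below every ConA library. The means were 687 ± 190 CPM in ConA+SIM and 1120 ± 313 CPM in ConA (SD, n = 3 each). The log2 fold change was -0.70 ± 0.26 (SE; 95% interval -1.29 to -0.11; edgeR adjusted p = 0.435). T cell markers did not move together: 5 of 10 had lower fitted values in ConA+SIM, Cd4 (-0.29 ± 0.22) and Cd3e among them. Cd2, also lower, had only 1.94 to 21.1 CPM (-0.51 ± 1.96). Cd3d (0.77 ± 0.22), Cd3g (0.64 ± 0.21) and Cd247 (1.14 ± 0.22, edgeR adjusted p = 0.0743) had higher values in ConA+SIM without overlap, as did 9.18% of all tested genes. They encode other chains of the T cell receptor complex. DESeq2 called all 3, beside 3.21% of its tested genes called higher. Whether the share of T cells in a library bears on the Tcf7 value was not tested. Over 16 alternative analyses the value stayed below 0, from -0.95 without ConA+SIM replicate 1 to -0.46 without ConA replicate 3.

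Lef1 encodes LEF-1, a factor of the same family as TCF-1 that binds the same DNA motif (chromosome 3, 131110297 to 131224357). Its level was 103, 143 and 101 CPM in ConA+SIM, against 49.0, 181 and 223 CPM in ConA. The ConA libraries held both the lowest and the highest values, a 4.54-fold range over the 6 libraries, the widest of the 9 genes. The log2 fold change was -0.39 ± 0.50 (edgeR adjusted p = 0.999), -0.82 without ConA replicate 1 and 0.035 without ConA replicate 3. As a ratio within a library, which does not depend on scaling, Tcf7 over Lef1 was 8.84, 3.98 and 5.79 in ConA+SIM and 16.6, 6.08 and 6.47 in ConA, so that ConA replicate 1 stood apart from the other libraries.

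Sequence around a RefSeq start site of Tcf7 and the starts of Actn1 and Il7r is shown for the 2 members with the smallest p-values and for Il7r, whose levels varied least. Each run holds 120 bases before the start and 30 bases from it, 5′ to 3′ on the gene's strand (RefSeq, GRCm38.p6, all on the minus strand). The motifs searched, on both strands, were TGTTTAC for forkhead factors such as FOXO1 and FOXP1 and CTTTGAT for TCF-1 and LEF-1. Capitals mark a match, which describes the letters only.
Tcf7, chr11:52282566-52282715: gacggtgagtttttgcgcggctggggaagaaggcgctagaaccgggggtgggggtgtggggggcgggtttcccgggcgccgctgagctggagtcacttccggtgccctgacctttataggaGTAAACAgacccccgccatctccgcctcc
Actn1, chr12:80260334-80260483: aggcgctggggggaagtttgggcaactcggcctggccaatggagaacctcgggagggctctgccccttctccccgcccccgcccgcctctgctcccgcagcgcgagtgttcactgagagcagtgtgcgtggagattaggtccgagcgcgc
Il7r, chr15:9529847-9529996: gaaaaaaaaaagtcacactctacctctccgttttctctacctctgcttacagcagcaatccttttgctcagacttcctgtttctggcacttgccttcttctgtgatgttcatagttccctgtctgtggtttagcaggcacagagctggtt
The table of starts held 8 of the 9 genes with 18 start sites, some of them alternative starts of 1 gene, each as a window of 250 bases before and 50 bases after the start. The forkhead letters were found in 1 of the 18 windows, the Tcf7 window printed here, and the TCF and LEF letters in 0. Over all 32851 start windows of the mouse table, 3.65% held the forkhead letters and 3.73% the TCF and LEF letters. In the windows of 300 bases CG pairs numbered 17 for this Tcf7 start, 24 for Actn1 and 1 for Il7r. The other Tcf7 start, at 52283014 and not printed, had 0 matches of either motif and 45 CG pairs.

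Ccr7, the lymph node homing receptor (chromosome 11, 99144199 to 99155077), had 418, 748 and 367 CPM in ConA+SIM, against 310, 903 and 640 CPM in ConA. The libraries numbered 2 were the highest of each group, and ConA replicate 1 was the lowest of all. Means of 511 ± 207 CPM in ConA+SIM and 618 ± 297 CPM in ConA gave a log2 fold change of -0.27 ± 0.40 (SE, n = 3 each; edgeR adjusted p = 0.999; 95% interval -1.18 to 0.63). Without ConA replicate 2 the value was 0.092.

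Il7r, the alpha chain of the interleukin 7 receptor (chromosome 15, 9506159 to 9529941), had 228, 209 and 312 CPM in ConA+SIM, against 257, 206 and 201 CPM in ConA. It was the steadiest of the 9 genes, with the highest library 1.55 times the lowest. The members' median for this ratio was 2.59, and it was 2.43 over the 3154 tested genes of at least the same level as the lowest member and without a 0. Its log2 fold change was 0.18 ± 0.25 (95% interval -0.39 to 0.74; edgeR adjusted p = 0.999), and -0.37 with transcript length and GC offsets. Set against Il7r in the same library, Tcf7 was 3.97, 2.72 and 1.87 times as high in ConA+SIM and 3.17, 5.36 and 7.15 times as high in ConA. The ranges of this ratio overlapped between 3.17 and 3.97.

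Foxo1 encodes the forkhead factor that switches on Il7r, Ccr7 and Klf2 in resting T cells and is held outside the nucleus by AKT (chromosome 3, 52268337 to 52350109). It stood at 117, 167 and 101 CPM in ConA+SIM, against 63.5, 106 and 174 CPM in ConA. All ConA+SIM values fell within the ConA range, and the log2 fold change was 0.16 ± 0.41 (edgeR adjusted p = 0.999). It was -0.14 without ConA replicate 1 and 0.62 without ConA replicate 3. The ratio of Foxo1 to its paralog Foxo3 peaked at 3.45 in ConA+SIM replicate 2 and at 3.73 in ConA replicate 2, and was 0.349 in ConA replicate 1, where Foxo3 was the more abundant. In the other libraries it lay between 2.07 and 2.30.

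Foxp1 encodes another forkhead factor, which holds naive T cells in quiescence and acts against FOXO1 at the Il7r gene in mouse (chromosome 6, 98925342 to 99522746). Levels were 143, 270 and 115 CPM in ConA+SIM, against 120, 269 and 122 CPM in ConA. Within both groups replicate 2 stood more than 100 CPM above the other libraries. The log2 fold change of 0.046 ± 0.43 was the smallest of the 9 (95% interval -0.92 to 1.02; edgeR adjusted p = 0.999), and ran from -0.40 without ConA+SIM replicate 2 to 0.53 without ConA replicate 2.

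Bach2 encodes a repressor that competes with AP-1 factors and restrains effector differentiation (chromosome 4, 32238413 to 32586109). It had the lowest level per transcript length of the 9 genes, with 60.0, 43.3 and 70.0 CPM in ConA+SIM, against 54.8, 142 and 63.5 CPM in ConA. ConA replicate 2 was the single high library. The log2 fold change was -0.59 ± 0.47 (edgeR adjusted p = 0.954), -0.050 without ConA replicate 2 and 0.14 without both libraries numbered 2. B cells also express Bach2, and ConA replicate 2 was the library with the highest B cell marker sum. The part of these cells in the Bach2 value was not tested, and in bulk RNA fewer cells of a type and less RNA per cell cannot be told apart.

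Satb1 encodes a chromatin organizer of T cells (chromosome 17, 51736187 to 51833290). It had 403, 559 and 297 CPM in ConA+SIM, against 393, 522 and 543 CPM in ConA. The ConA+SIM libraries held both the highest and the lowest value. The log2 fold change was -0.21 ± 0.26 (95% interval -0.81 to 0.38; edgeR adjusted p = 0.999), and 0.036 with transcript length offsets.

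Actn1 (chromosome 12, 80167542 to 80260420) had 211, 204 and 204 CPM in ConA+SIM, against 200, 402 and 518 CPM in ConA. The ConA+SIM libraries were nearly equal to each other and to ConA replicate 1, while ConA replicates 2 and 3 stood above them. The means were 206 ± 3.98 CPM in ConA+SIM and 373 ± 161 CPM in ConA (SD, n = 3 each). The log2 fold change was -0.86 ± 0.33 (SE; 95% interval -1.59 to -0.12; edgeR adjusted p = 0.457). It was -1.17 without ConA replicate 1, -0.52 without ConA replicate 3 and -0.47 with transcript length and GC offsets. Endothelial cells also carry alpha-actinin 1. The endothelial marker sum was 306, 574 and 533 CPM in ConA+SIM, against 272, 1745 and 553 CPM in ConA. ConA replicate 2 was high in both measures and ConA replicate 1 low in both. ConA replicate 3, the highest for Actn1 at 518 CPM, had an endothelial sum within the ConA+SIM range. ConA+SIM replicate 2, at 204 CPM of Actn1, had the second highest endothelial sum. The part of these cells in the Actn1 value was not tested.

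**Figure D2:**
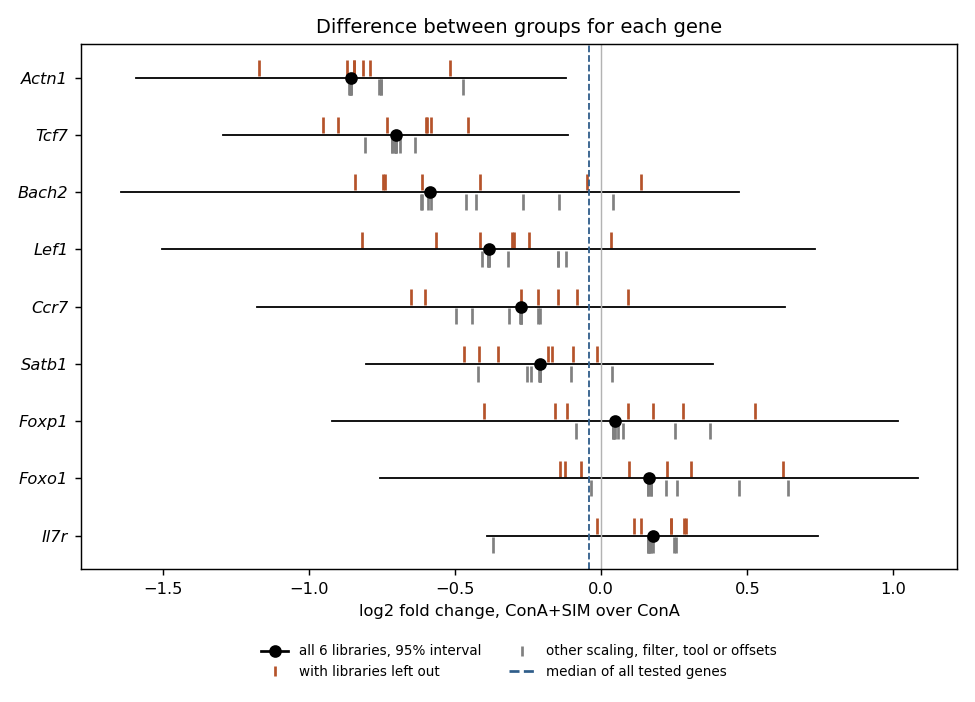
Log2 fold change of ConA+SIM over ConA for each gene (horizontal axis), with its 95% interval in black, the values with libraries left out above the line and the values under other processing below it. Tcf7 and Actn1 are the 2 genes whose interval and alternatives lie below 0 throughout, and the dashed line marks the median of all tested genes at -0.04.

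Levels of different genes were compared per kilobase of the longest coding transcript. Tcf7 (278 ± 77.0 CPM per kb in ConA+SIM, 453 ± 127 in ConA) and Ccr7 (258 ± 104 in ConA+SIM, 312 ± 150 in ConA) took the 2 highest places in all 6 libraries. They changed places in the libraries numbered 2, so their order was within the spread. Actn1, Satb1 and Il7r, at 77.6, 72.5 and 66.6 CPM per kb over the 6 libraries, swapped places between libraries. Lef1 followed at 38.3, Foxp1 at 24.1, Foxo1 at 14.0 and Bach2 at 8.14 CPM per kb, and each of these neighbours changed places in 1 library. Bach2 was the lowest in 5 of 6 libraries, the exception being ConA replicate 2.

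**Figure D3:**
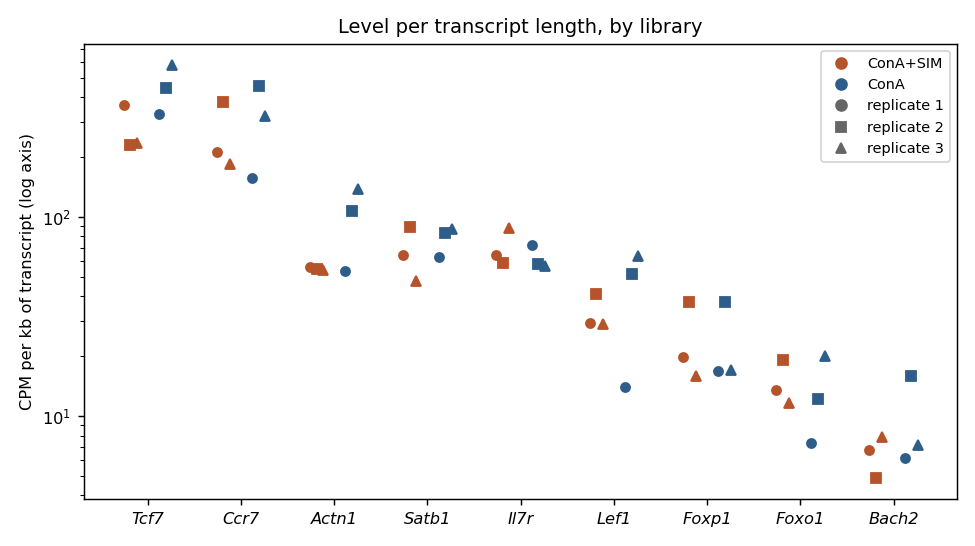
Level per transcript length (CPM per kb, log axis) of the 9 genes in each library, ConA+SIM left of ConA within each gene. Tcf7 and Ccr7 lie above the other genes in every library, and Bach2 averages 8.14 CPM per kb.

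The 9 genes did not share a single pattern over the libraries. ConA replicate 3 was the highest library for 4 of them (Tcf7, Lef1, Foxo1 and Actn1), and ConA replicate 1 the lowest for 4 (Ccr7, Lef1, Foxo1 and Actn1). The sum of the 9 genes was 2589, 2914 and 2153 CPM in ConA+SIM, against 2263, 3834 and 3926 CPM in ConA. ConA replicate 1 thus lay inside the ConA+SIM range and the other ConA libraries above it. Likeness between genes was measured as the root mean square difference of their log2 CPM over the 6 libraries after centring each gene on its mean. The most alike pair of the 9 was Tcf7 and Actn1 (0.28), followed by Ccr7 and Foxp1 (0.33), and the least alike Lef1 and Il7r (0.87); the family pair Tcf7 and Lef1 stood at 0.64.

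**Figure D4:**
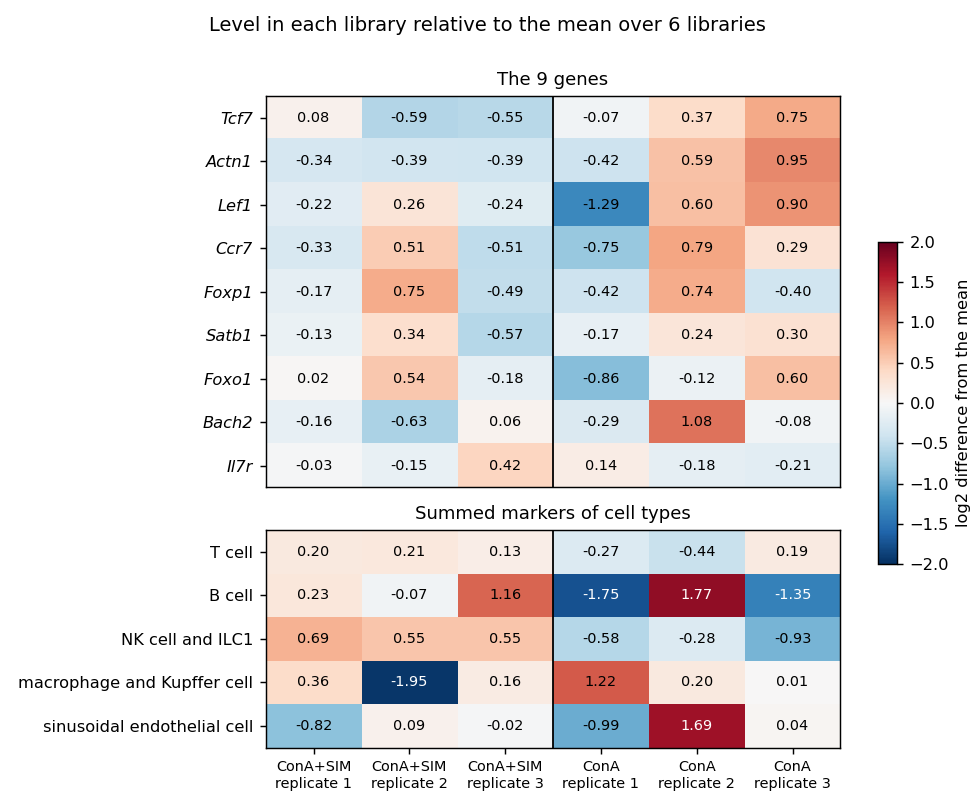
Level of the 9 genes (upper block) and of summed cell type markers (lower block) in each library, as the log2 difference from the mean over the 6 libraries, written in each cell; red is higher and blue lower. Lef1 ranges from -1.29 in ConA replicate 1 to 0.90 in ConA replicate 3, and B cell markers peak in ConA replicate 2, as Bach2 does.

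Among tested genes outside the 9 with a mean of at least 10 CPM, the profile nearest to that of Ccr7 was of the kinase gene Gsk3b (root mean square difference 0.11), to Tcf7 of the casein kinase gene Csnk1g2 (0.11) and to Lef1 of the respiratory complex I gene Ndufa10 (0.20). Jak2, a tyrosine kinase gene of cytokine receptors, was nearest to Il7r (0.048), and Rel, which encodes the NF-kappaB subunit c-Rel, to Foxp1 (0.068). Ttc13 was nearest to Foxo1 (0.13), the Mediator subunit gene Med14 to Bach2 (0.082), Rmnd5a to Satb1 (0.10) and Jarid2, of Polycomb complex 2, to Actn1 (0.13). These are descriptions over 6 libraries.

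Of 20 other genes of naive and central memory T cells, 0 passed the edgeR test, 2 had an unadjusted p under 0.05, both lower (3.54% of all tested genes), and the list had a median of 0.08 (log2 fold change). It turned to -0.12 without ConA replicate 1 and to -0.096 without ConA+SIM replicate 2. Klf2, a quiescence factor that FOXO1 induces, had 429, 360 and 376 CPM in ConA+SIM, against 378, 538 and 569 CPM in ConA. S1pr1, the receptor for exit from tissue into lymph and blood, had 487, 604 and 351 CPM in ConA+SIM, against 354, 546 and 450 CPM in ConA. The smallest p-values of the list were those of Igfbp4 and Ets1. Igfbp4, an insulin-like growth factor binding protein gene used as a naive cell marker, had 78.8, 64.4 and 70.4 CPM in ConA+SIM, against 127, 158 and 155 CPM in ConA, without overlap (log2 fold change -1.04 ± 0.30, edgeR adjusted p = 0.286). DESeq2 called Igfbp4 lower and no other gene of this list, beside 1.75% of its tested genes called lower. In limma-voom 0 were called. For Ets1, a T cell transcription factor gene, the log2 fold change was -0.42 ± 0.17 (edgeR adjusted p = 0.508). Igfbp4 and Ets1 were the 2 of 20 genes with lower values and no overlap, beside 8.57% of all tested genes.

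Of 20 effector and effector memory genes, 0 passed the edgeR test, and 4 had an unadjusted p under 0.05 with higher and 1 with lower values (5.31% and 3.54% of all tested genes). The median of -0.05 ran from -0.28 without ConA replicate 2 to 0.23 without ConA replicate 3, and was 0.017 without ConA+SIM replicate 1, -0.17 without ConA+SIM replicate 2 and -0.16 without ConA+SIM replicate 3. The smallest p-values were those of Lgals1, the galectin 1 gene, with 1600, 936 and 1435 CPM in ConA+SIM, against 678, 483 and 687 CPM in ConA, and Ccl5, a chemokine gene. Their log2 fold changes were 1.10 ± 0.24 (edgeR adjusted p = 0.128) and 0.86 ± 0.32 (adjusted p = 0.425). DESeq2 called Lgals1 and S100a4 higher, and limma-voom called Lgals1, beside 3.21% and 1.03% of their tested genes called higher. The NK cell and ILC1 marker sum was higher in all ConA+SIM libraries, 680 to 749 CPM against 244 to 383 CPM in ConA, with Ncr1 at 0 throughout; its part in Ccl5 was not tested.

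Around the receptors, Ccr7 and Gi signalling genes had a median log2 fold change of 0.43 over 13 tested, with 0 past the edgeR test and 5 higher and 1 lower at an unadjusted p under 0.05 (5.31% and 3.54% of all tested genes). The median was 0.26 without ConA+SIM replicate 2 or without ConA+SIM replicate 3, 0.13 with a filter of 5 CPM, 0.080 without both libraries numbered 2 and 0.21 with transcript length and GC offsets. Transcripts for the Ccr7 ligands Ccl19 and Ccl21a had no counts in any library. Rgs2, a gene for a regulator that shortens G protein signals, had 1034, 1283 and 883 CPM in ConA+SIM, against 518, 517 and 583 CPM in ConA (log2 fold change 0.98 ± 0.19, edgeR adjusted p = 0.0743). For Rap1a, a small GTPase gene of integrin activation, the value was 1.04 ± 0.22 (adjusted p = 0.103). limma-voom called Rgs1 and Rgs2 higher, beside 1.03% of its tested genes called higher. DESeq2 called these, Rap1a and Gnai3 higher and Dock2 lower, beside 3.21% of its tested genes called higher and 1.75% lower. In interleukin 7 receptor signalling, 0 of 12 tested genes passed, 0 had an unadjusted p under 0.05 and the median was -0.27, or 0.043 with transcript length and GC offsets, -0.17 without ConA replicate 1 and -0.13 without ConA+SIM replicate 3; DESeq2 and limma-voom also called 0. The smallest p-values were those of the receptor kinase genes Jak1 (-0.42 ± 0.20) and Jak3 (-0.76 ± 0.37), both with an adjusted p of 0.626.

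Around the nuclear factors, 10 of 12 tested Tcf7 and Lef1 partner genes had lower values in ConA+SIM, with a median log2 fold change of -0.51 (-0.13 and 7 of 12 with transcript length and GC offsets, -0.25 and 7 of 12 without ConA replicate 3), 0 past the edgeR test and 0 with an unadjusted p under 0.05. Over all tested genes, 52% had values below 0, and 5.31% were higher and 3.54% lower at an unadjusted edgeR p under 0.05. Groups did not overlap in 9.18% with higher and 8.57% with lower values, and DESeq2 called 3.21% of its tested genes higher and 1.75% lower. DESeq2 called Tle1 lower, a gene with counts in ConA replicates 2 and 3 alone (17.2 and 26.4 CPM), which the filter before the edgeR test left out. Hdac3, a histone deacetylase gene, had a value of -0.71 ± 0.36, and Tle3, a corepressor gene of the TLE family, one of -0.60 ± 0.31. Foxo1 targets and regulators had a median of -0.18 over 17 genes, 2 of them lower at an unadjusted p under 0.05: Sesn3, a FOXO1-induced sestrin gene (-0.91 ± 0.34), and Akt1, the kinase gene (-0.93 ± 0.39). That median was 0.15 without ConA replicate 2, -0.26 without ConA+SIM replicate 1, -0.11 without ConA replicate 3 and -0.016 with transcript length offsets. None of the 17 passed with edgeR, DESeq2 or limma-voom. Bach2 partners and rivals had a median of 0.00 over 11 genes (-0.27 without ConA replicate 2, 0.20 without ConA+SIM replicate 3), with 1 higher at an unadjusted p under 0.05 and 0 called by edgeR, DESeq2 or limma-voom. In that list the AP-1 genes Junb (0.56 ± 0.20, groups not overlapping) and Jun (-0.40 ± 0.20, groups not overlapping) had the smallest p-values and opposite signs. Of 7 tested Satb1 cofactor genes 0 passed the edgeR test, 1 was higher and 3 lower at an unadjusted p under 0.05, and the median was 0.08, or -0.30 in DESeq2, which took in all 8. It was -0.039 without ConA replicate 2, -0.11 without ConA+SIM replicate 3 and 0.20 without ConA+SIM replicate 1. Smarca4, the BRG1 chromatin remodeler gene, stood at -1.17 ± 0.29, and the corepressor gene Ctbp1 at -0.89 ± 0.28; DESeq2 called both lower and Hdac2 higher. For the Foxp family, Foxp3 had a log2 fold change of -0.76 ± 1.55 and Foxp4 one of -0.28 ± 1.56, with 0 called by any tool, 0 at an unadjusted p under 0.05 and Foxp2 without counts.

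Genes of the Actn1 family and of focal adhesions, the sites where integrins meet actin, had lower values in ConA+SIM in 11 of 12 tested genes, with a median log2 fold change of -0.65. None passed the edgeR test, 7 had an unadjusted p under 0.05 with lower values, and in 7 the groups did not overlap with lower values, beside 3.54% and 8.57% of all tested genes. Macrophage markers (8 of 9 tested lower, median -1.09, summing to 245 to 1214 CPM in ConA+SIM and 949 to 2200 CPM in ConA) and endothelial markers (8 of 8 lower, median -0.94) had lower fitted values too. Without ConA replicate 2 the endothelial median was 0.12, with 3 of 8 below 0, and the focal adhesion median was -0.73. The part of macrophages and endothelial cells in this list was not tested. Actn4, the second alpha-actinin gene of these cells, had 186, 196 and 181 CPM in ConA+SIM, against 352, 318 and 252 CPM in ConA (log2 fold change -0.71 ± 0.23, edgeR adjusted p = 0.369). Actn1 over Actn4 in the same library was 1.14, 1.04 and 1.13 in ConA+SIM and 0.569, 1.26 and 2.06 in ConA. Tln1, the gene of the integrin activator talin, stood at -1.02 ± 0.23 (adjusted p = 0.135) and the filamin gene Flna at -0.87 ± 0.22 (adjusted p = 0.223). DESeq2 called 6 of the genes lower (Actn4, Tln1, Flna, Itgb2, Itgal and Msn), beside 1.75% of its tested genes. limma-voom called Tln1 and Flna lower, beside 0.0666% of its tested genes. With sample quality weights it called Tln1 alone, beside 0.0381% called lower. With transcript length and GC offsets in edgeR the median of the list was -0.10. That fit called 0 of all tested genes, so a count of 0 is not particular to this list.

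**Figure D5:**
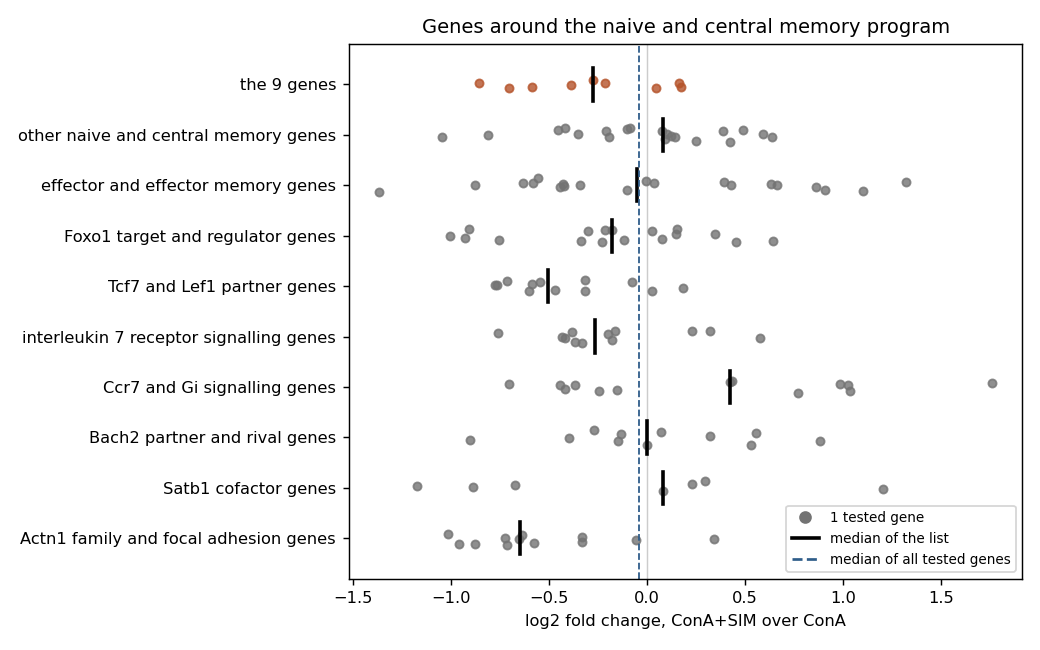
Log2 fold change of ConA+SIM over ConA (horizontal axis) for each tested gene of the 9 and of the surrounding lists, with the median of each list as a black bar and the median of all tested genes as a dashed line. Focal adhesion genes lie lowest, with a median of -0.65, and Ccr7 and Gi signalling genes highest, with a median of 0.43 that was 0.13 with a filter of 5 CPM and 0.080 without both libraries numbered 2.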

How the data were processed

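The values are read counts as the authors deposited them, without normalization and with 1 column per library. HISAT2 2.1.0 and build GRCm38 are named in the submitters' processing notes. How reads were counted (tool, annotation, strand, reads with several matches) was not stated in the labels or notes used here. No column was left unused. Columns were assigned by sample titles.

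Genes were kept with filterByExpr of edgeR 4.0.16 in R 4.3.3, scaled with TMM factors and tested with the quasi-likelihood F test, robust, ConA+SIM over ConA, without covariates. The SE is the size of the log2 fold change divided by the root of F. CPM are counts relative to the TMM-scaled total; log2 CPM used a prior count of 2. Coordinates and start sequences are from the RefSeq tables of GRCm38.p6 and lengths from GENCODE M21, the longest coding transcript of its basic set. A gene at 0 counts could hold up to 3 counts, 0.118 to 0.175 CPM, for counting error only. The 9 genes had 0 duplicate rows, and their counts ran from 743 to 36631 per library, so the spread between libraries limits the precision. Some other genes, Cd2, Cd28, Lck and Foxp4 among them, had further rows under a numbered name, which their values leave out. No pair of libraries agreed within sampling noise.

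The members and gene lists were chosen with earlier results of these data known. Genes named are the 9, Klf2, S1pr1, the 2 genes of each list with the smallest p, and the nearest profile to each member; any other gene was picked with its values in view. A gene that this rule also covers is not reported here. Alternatives were RLE scaling, other filters, DESeq2 1.42.0, limma-voom (limma 3.58.1) with and without quality weights, a replicate block, leaving out each library, and offsets for transcript length, or length and GC content. The fit was tested on simulated data.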

Additional observations from a re-analysis of the deposited data

How the results depend on the processing

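Tcf7 and Actn1 kept lower values in ConA+SIM in all 16 alternatives, Tcf7 from -0.95 to -0.46 and Actn1 from -1.17 to -0.47 (log2), and Tcf7 passed in DESeq2 alone (-0.72). The other 7 genes turned sign somewhere; the cause was not tested. Foxp1 was -0.085 and Foxo1 -0.034 with quality weights. Without ConA replicate 1 they were -0.16 and -0.14, and without ConA+SIM replicate 2 -0.40 and -0.071. Leaving out 1 library, Foxp1 ran from -0.40 to 0.53, Foxo1 from -0.14 to 0.62, Ccr7 from -0.65 to 0.092, Lef1 from -0.82 to 0.035 and Il7r from -0.016 to 0.29. Foxp1 was -0.12 without ConA replicate 3. Satb1 was 0.036 with length offsets; with length and GC offsets Il7r was -0.37 and Bach2 0.042. Without both libraries numbered 2, an alternative chosen after seeing the data, Foxo1 was -0.12 and Bach2 0.14. The median of the 9 genes ran from -0.60 to -0.050 with 1 library left out.

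Over all genes, 57 passed as higher and 0 as lower in the edgeR test. DESeq2 called 342 higher and 186 lower, with 1 of the 9 genes, limma-voom 108 and 7, and voom with quality weights 110 and 4. RLE scaling and no filter each called 1 gene lower. With 1 library left out 0 to 3 genes passed as higher. Both kinds of offsets and leaving out both libraries numbered 2 gave 0. The replicate block gave 0 as well, but the libraries share only a number: deviations of same-numbered libraries had correlations of 0.011, 0.0088 and 0.033. In that fit Tcf7 was -0.70 and Actn1 -0.75. The 95% intervals of the 9 genes span more than 1 log2 unit each, so the spread between libraries limits what could be detected.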
